A study of Mus musculus with 12 samples.

Results

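The mitochondrial ribosome genes were followed as transcripts in 12 mouse livers. They were taken by name, as every row of the gene table whose symbol is Mrpl or Mrps followed by a number and at most 1 letter from a to c, a rule that uses no measured value. It found 78 genes among the 24532 in the table, 49 Mrpl genes named for the large subunit and 29 Mrps genes named for the small subunit. All mice were male C57BL/6 animals carrying floxed Ahr alleles (Ahr fl/fl). Ahr HKO mice also carried Alb-Cre, a Cre driven by the albumin promoter, so that Ahr was deleted in hepatocytes while the other liver cells kept it. WT mice were Ahr fl/fl littermates without Cre. From 10 to 12 weeks of age they received a Lieber-DeCarli liquid diet with 5% ethanol by volume, supplying 36% of calories, or an isocaloric control diet, for 5 weeks. There were 3 livers in each of the 4 groups of genotype and diet, picked at random from larger groups of mice, and poly-A RNA was sequenced from each.

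The mitochondrial ribosome translates the few proteins that mitochondrial DNA encodes, all of them core subunits of the respiratory chain and ATP synthase. Its RNA comes from mitochondrial DNA, whereas its proteins are encoded in the nucleus, made in the cytosol and imported, so that both genomes must be matched for the ribosome to assemble. Part of its proteins have bacterial counterparts and part were added in mitochondria. The liver is rich in mitochondria, and ethanol oxidation in hepatocytes feeds reducing equivalents into them. The names do not map onto the particle perfectly. The Mrps18a and Mrps30 proteins sit in the large subunit, the Mrps36 protein is known as a component of the 2-oxoglutarate dehydrogenase complex, and Mrpl58 is a peptidyl-tRNA hydrolase that was also taken into the large subunit.

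Between 46306518 and 74336255 reads fell on genes per liver, and no pair of livers had identical counts. The 12317 genes with at least 10 reads in every liver differed between livers of a group by far more than read sampling gives, with a chi-square of 68.0 to 310.3 per degree of freedom over the pairs. Ahr itself was read at 16.6 to 20.1 CPM (counts scaled to a common library size with TMM factors) in WT control livers, 20.8 to 30.5 in WT ethanol, 41.3 to 65.5 in Ahr HKO control and 24.7 to 41.8 in Ahr HKO ethanol livers. The libraries labelled Ahr HKO were therefore not lower in Ahr reads. Reads counted per gene do not separate the floxed exon from the rest of the transcript, so these counts check the genotype labels in neither direction. Hepatocyte markers (Alb, Apoa1, Ttr, Serpina1a, Cps1 and Hnf4a) summed to 69904 to 111652 CPM, with both ends in Ahr HKO control livers. Most of the sum was Alb, at 47282 to 90568 CPM. At an adjusted p under 0.05 in the comparisons below, 1 of the 6 was lower with ethanol in WT livers. Another comparison, Ahr deletion on control diet, had 1 higher, as had ethanol in Ahr HKO livers. Of all genes 4.63%, 15.4% and 14.9% were called in these ways. The 7 Kupffer cell and macrophage markers were uneven within 2 groups. They summed to 312.6, 797.9 and 306.2 CPM in WT ethanol livers 1 to 3 and to 878.2, 569.6 and 304.5 CPM in Ahr HKO control livers 1 to 3. In whole liver, fewer cells of a type and less RNA per cell cannot be told apart.

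All 78 genes were detected in every liver, at 185 to 7784 reads each, and all passed the filter on low counts. Levels can be compared between genes as FPKM, which divides fragments by transcript length and by library size. On that scale the median over 12 livers was 24.7 for the Mrpl genes and 19.4 for the Mrps genes. Mrpl12, which forms the flexible stalk that recruits translation factors, was the highest at 98.96 FPKM, and Mrpl52 followed at 82.8. The highest Mrps gene was Mrps21 at 57.9 FPKM. Mrps25 and Mrpl19 were the lowest at 2.08 and 2.29 FPKM. The exons of Mrps25 overlap those of Nr2c2 on the opposite strand over 4590 bases, and those of Mrpl19 overlap Gcfc2 over 1962 bases. The deposited levels of the 78 genes thus spread widely. The spread between livers of 1 group was small beside that. The median coefficient of variation of the 78 genes was 6.39% in WT control, 8.83% in WT ethanol, 7.49% in Ahr HKO control and 6.13% in Ahr HKO ethanol livers.

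**Figure D1:**
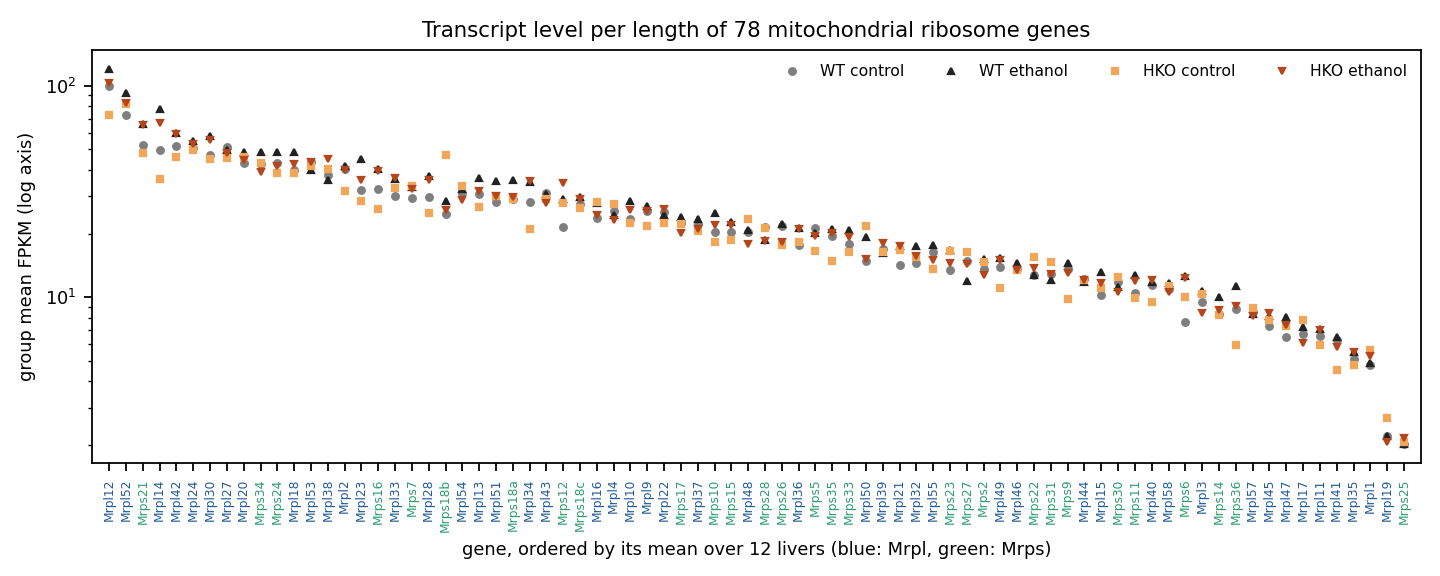
Group mean FPKM on a log axis for each of the 78 genes, ordered by the mean over 12 livers, with Mrpl names in blue and Mrps names in green and 1 symbol per group of 3 livers. The genes run from 98.96 FPKM for Mrpl12 to 2.08 for Mrps25, and both subunits are found along the whole range.

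The genes lie on 17 chromosomes, all 78 with a RefSeq position on GRCm38.p6. A divergent neighbour, a protein-coding gene on the opposite strand that starts within 1000 bases upstream, was annotated in GENCODE for 18 of the 78 genes (23.1%) and for 7.03% of all 20157 protein-coding genes of the table. RefSeq promoter sequences, 250 bases before to 50 bases after the start, were found for 69 of the genes. In these windows, on either strand, the core motif GCATGCGC of nuclear respiratory factor NRF1 was present in 11.6% of the 69 genes against 3.96% of 18245 genes of the table. The ETS motif CCGGAAGT, which GABPA binds, was present in 17.4% against 5.67%, and the YY1 motif AAGATGGCG in 11.6% against 2.15%. The E-box CACGTG was present in 7.25% against 9.13%, and the core of the AhR response element, TNGCGTG, in 7.25% against 6.99%. Among 61 cytosolic ribosomal protein genes the shares were 4.92% (NRF1), 18.0% (ETS), 6.56% (YY1), 9.84% (E-box) and 14.8% (AhR). The ETS share was thus alike in both kinds of ribosomal protein gene. Of the Mrpl genes 16.3% held the NRF1 core and of the Mrps genes 3.85%. The ETS motif was found in 0 of 18 genes that rose with ethanol in Ahr HKO livers and in 12 of 49 that were not called there. Its share in all genes was 5.67%. In the same 2 sets the shares were 11.1% and 10.2% (NRF1), 5.56% and 14.3% (YY1), 5.56% and 8.16% (E-box) and 5.56% and 8.16% (AhR). The difference between the sets was not tested. These are matches of letters in a window and not binding sites.

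The upstream bases of the 3 genes named in the most comparisons below are given, since they are named in 3 comparisons each and 2 of them, Mrps18b and Mrpl50, start next to a divergent neighbour. Capitals mark the bases between the RefSeq start of the gene and the GENCODE start of its divergent neighbour, Ppp1r10 for Mrps18b and Zfp189 for Mrpl50. Mrpl14 has no such neighbour. The sequences run from 250 bases upstream to the base before the start, from RefSeq on GRCm38.p6, at chr17:35916441-35916690 on the minus strand for Mrps18b, chr4:49521084-49521333 on the minus strand for Mrpl50 and chr17:45686099-45686348 on the plus strand for Mrpl14.
Mrps18b: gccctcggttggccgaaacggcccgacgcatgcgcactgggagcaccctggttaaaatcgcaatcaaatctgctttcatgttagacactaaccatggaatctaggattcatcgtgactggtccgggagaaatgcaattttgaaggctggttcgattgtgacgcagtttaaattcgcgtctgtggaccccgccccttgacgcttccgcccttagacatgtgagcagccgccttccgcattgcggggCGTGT
Mrpl50: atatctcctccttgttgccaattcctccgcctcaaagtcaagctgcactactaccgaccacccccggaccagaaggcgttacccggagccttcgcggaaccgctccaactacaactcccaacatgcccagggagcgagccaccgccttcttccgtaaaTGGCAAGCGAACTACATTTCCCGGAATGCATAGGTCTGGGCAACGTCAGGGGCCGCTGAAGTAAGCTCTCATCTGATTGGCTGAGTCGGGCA
Mrpl14: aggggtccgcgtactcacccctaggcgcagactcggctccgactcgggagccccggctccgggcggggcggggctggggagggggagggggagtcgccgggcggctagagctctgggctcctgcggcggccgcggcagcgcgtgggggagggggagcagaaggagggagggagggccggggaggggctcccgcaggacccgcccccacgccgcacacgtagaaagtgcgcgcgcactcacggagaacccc
There are 5 such bases for Mrps18b and 92 for Mrpl50, while with GENCODE starts for both genes of a pair the starts lie 45 and 83 bases apart. The Mrps18b window holds the NRF1 core, whereas the Mrpl50 and Mrpl14 windows hold none of the 5 motifs. The Mrpl14 stretch is 77.2% G or C, against 54.8% for Mrps18b and 57.2% for Mrpl50.

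As a whole the family changed little in summed level. The 49 Mrpl genes summed to 1420 ± 31.5 CPM (SD, n = 3) in WT control, 1425 ± 96.7 in WT ethanol, 1354 ± 63.6 in Ahr HKO control and 1544 ± 19.3 in Ahr HKO ethanol livers. The 29 Mrps genes summed to 662.7 ± 21.02, 653.0 ± 40.9, 666.9 ± 28.3 and 707.8 ± 10.8 CPM in the same order. The Ahr HKO ethanol livers were the highest group for both subunits, and their 3 livers lay above every other liver in both sums. This order rests on the scaling. Unscaled, the 78 genes took 0.201 to 0.211% of the reads on genes in WT control, 0.223 to 0.227% in WT ethanol, 0.195 to 0.204% in Ahr HKO control and 0.207 to 0.220% in Ahr HKO ethanol livers, so that the WT ethanol livers were the highest. The TMM factors that account for the difference were 1.01 to 1.16 in WT ethanol and 0.925 to 0.965 in Ahr HKO ethanol livers. The lowest sum in the WT ethanol group was that of liver 2, at 1317 CPM for Mrpl and 611.5 for Mrps genes.

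The balance between the 2 subunits does not depend on that scaling. The ratio of summed Mrpl to summed Mrps reads was 2.14 ± 0.049 (SD, n = 3) in WT control, 2.18 ± 0.035 in WT ethanol, 2.03 ± 0.029 in Ahr HKO control and 2.18 ± 0.043 in Ahr HKO ethanol livers. The 3 Ahr HKO control livers, at 2.063, 2.011 and 2.015, lay below all 9 other livers, of which the lowest was 2.099. Mrps18a and Mrps30 were then counted with the large subunit and Mrps36 left out. The ratio was 2.41, 2.45, 2.28 and 2.43, with Ahr HKO control again lowest. Both ratios count Mrps18b with the small subunit. It stood at 48.6, 50.4 and 56.1 CPM in Ahr HKO control and 27.3, 25.9 and 29.03 in WT control livers. The lower ratio therefore rests in large part on this gene. The median log2 fold changes between these groups were alike, -0.06 for the Mrpl and -0.04 for the Mrps genes.

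**Figure D2:**
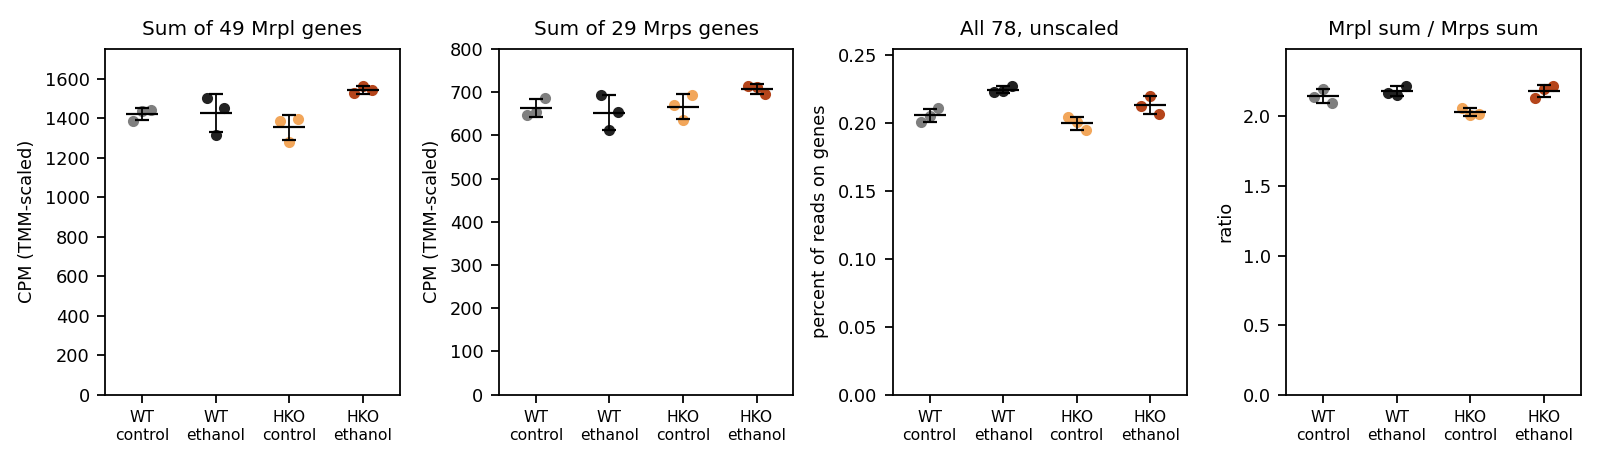
Summed CPM of 49 Mrpl and 29 Mrps genes after TMM scaling, the unscaled percent of reads on genes that all 78 took, and the ratio of the 2 sums, with 1 point per liver and the mean with SD of 3 livers in black. The Ahr HKO ethanol livers were highest after scaling and the WT ethanol livers without it. The ratio was lowest in the Ahr HKO control livers, where Mrps18b, part of the Mrps sum, was highest.

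The 4 groups were compared in pairs by edgeR's quasi-likelihood test over 14038 genes, with Benjamini-Hochberg adjustment over all of them, and a gene was called at an adjusted p under 0.05. Each group enters 2 of the pairs, so the comparisons share livers and are set side by side rather than correlated. Each liver is a separate mouse, so the p-values measure the spread between mice.

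In WT mice, few genes of the family were called with ethanol. Of the 78 genes 1 rose, where 4.84% of all genes did, and 1 fell, where 4.63% did. The groups did not overlap for 9 genes that were higher and 11 that were lower, against 32.9% of all genes in either direction. No gene was called with a fold change above 1.5, against 6.76% of all genes. The median log2 fold change was -0.04 for the Mrpl and 0.01 for the Mrps genes, beside 0.03 for all genes, and with library totals in place of TMM factors these became 0.08, 0.13 and 0.15. Relative to all genes the family was thus slightly lower under both scalings.

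Mrpl14, a protein at the face of the large subunit that meets the small one, was the gene that rose. It stood at 30.8, 34.0 and 29.5 CPM in WT control and 43.5, 40.5 and 47.1 in WT ethanol livers. Both groups stood apart, and the fold change was 1.40 (log2 0.49, SE 0.10, adjusted p = 0.0259). Mrps27, a pentatricopeptide repeat protein that binds RNA in the small subunit, was the gene that fell. It stood at 31.2, 30.0 and 26.3 CPM in WT control and 19.4, 19.7 and 23.2 in WT ethanol livers, again without overlap (log2 fold change -0.48, SE 0.11, adjusted p = 0.0446). The call of Mrpl14 held only without WT ethanol liver 2 and that of Mrps27 only without WT ethanol liver 3 when 1 liver was left out, with adjusted p of 0.0583 to 0.0955 and 0.0679 to 0.139 in the other cases. Leaving out any WT control liver or WT ethanol liver 1 left 0 of the 78 genes called by edgeR. Of all 14038 genes 191 to 433 were then called higher and 176 to 593 lower. With all livers 12 of the 78 had an unadjusted p under 0.05 in that test. DESeq2 called 4 of the 78, where it called 1189 of all 14038 genes higher and 1146 lower.

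In Ahr HKO mice, ethanol raised a part of the family. Of the 78 genes 20 rose, or 25.6%, where 14.9% of all genes did, and 2 fell, or 2.56%, where 15.9% of all genes did. Both subunits took part, with 13 of 49 Mrpl and 7 of 29 Mrps genes that rose. The groups did not overlap for 37 genes that were higher and 8 that were lower, against 49.8% of all genes in either direction. With a fold change above 1.5, 7 of the 78 were called, against 22% of all genes, so the changes were mostly small. The median log2 fold change was 0.19 for the Mrpl and 0.15 for the Mrps genes, beside -0.02 for all genes, and with library totals 0.13, 0.09 and -0.08.

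Mrpl14 rose the most. It stood at 22.1, 19.5 and 26.1 CPM in Ahr HKO control and 42.2, 46.9 and 40.7 in Ahr HKO ethanol livers, without overlap (1.92-fold, log2 0.94, SE 0.13, adjusted p = 0.00417). Its exons overlap those of Tmem63b, a gene on the opposite strand, over 106 bases. Tmem63b moved the same way, with a log2 fold change of 0.87 (SE 0.12, adjusted p = 0.00365), and whether the counting used strand is not given in the sources used here. Mrpl34, a small protein of bacterial origin, stood at 16.0, 14.8 and 11.3 CPM on control and 26.5, 23.97 and 25.3 on ethanol diet (log2 0.85, SE 0.14, adjusted p = 0.00579). Mrpl12, the stalk protein, stood at 75.8, 71.1 and 68.5 CPM on control and 110.3, 106.0 and 107.1 on ethanol diet (log2 0.59, SE 0.10, adjusted p = 0.00587). Neither pair of groups overlapped. Mrpl10, the base on which the stalk is mounted, had a log2 fold change of 0.27 (SE 0.09, adjusted p = 0.0581), and Mrpl11, at the foot of the stalk, one of 0.31 (SE 0.10, adjusted p = 0.0536).

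Mrps36, the gene whose product belongs to the 2-oxoglutarate dehydrogenase complex, stood at 5.16, 4.37 and 3.73 CPM on control and 7.30, 7.93 and 6.20 on ethanol diet (log2 0.69, SE 0.17, adjusted p = 0.022). Mrps16 and Mrpl28, both with bacterial counterparts, rose with log2 fold changes of 0.66 (SE 0.13, adjusted p = 0.0114) and 0.59 (SE 0.11, adjusted p = 0.00853). The other genes that rose were Mrpl49, Mrps21, Mrps35, Mrps9, Mrpl41, Mrpl42, Mrpl40, Mrpl2, Mrpl30, Mrps10, Mrpl13, Mrps33, Mrpl9 and Mrpl22. The 2 genes that fell were Mrps18b and Mrpl50. Mrps18b stood at 48.6, 50.4 and 56.1 CPM on control and 28.0, 35.1 and 26.1 on ethanol diet (log2 -0.80, SE 0.14, adjusted p = 0.00689). Mrpl50 stood at 47.4, 49.9 and 44.9 CPM on control and 35.4, 39.1 and 30.4 on ethanol diet (log2 -0.44, SE 0.11, adjusted p = 0.0276). In both the control livers were the higher ones without overlap.

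The number of calls depended on single livers. Without Ahr HKO control liver 1, 12 genes of the family rose and 1 fell, beside 1548 and 1651 of all 14038 genes. Without control liver 2 it was 10 and 1, beside 1566 and 1607 of all genes. Without ethanol liver 1 it was 9 and 1, beside 1484 and 1586. Without ethanol liver 2 it was 7 and 2, beside 1487 and 1473, and without ethanol liver 3 11 and 1, beside 1278 and 1310. Without ethanol liver 1 or 2 the family thus rose about as often as all genes. The calls of Mrpl14, Mrpl34, Mrpl12, Mrps16, Mrpl28 and Mrps18b held in all 6 cases, and those of Mrps36 and Mrpl50 in 2 of 6. Beside these changes, all 7 Kupffer cell and macrophage markers were lower in the Ahr HKO ethanol livers (adjusted p under 0.05 each). Their summed level was 192.6 to 239.4 CPM there and 304.5 to 878.2 in Ahr HKO control livers, none of them at 0. Of the other leukocyte markers 3 of 5 were called lower (median log2 fold change -1.41, summed level 8.04 to 9.75 against 17.6 to 31.0 CPM), and of the sinusoidal endothelial markers 2 of 6 (median -0.55, 172.7 to 194.9 against 243.4 to 265.9 CPM). The part of these cell types in the result was not tested.

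**Figure D3:**
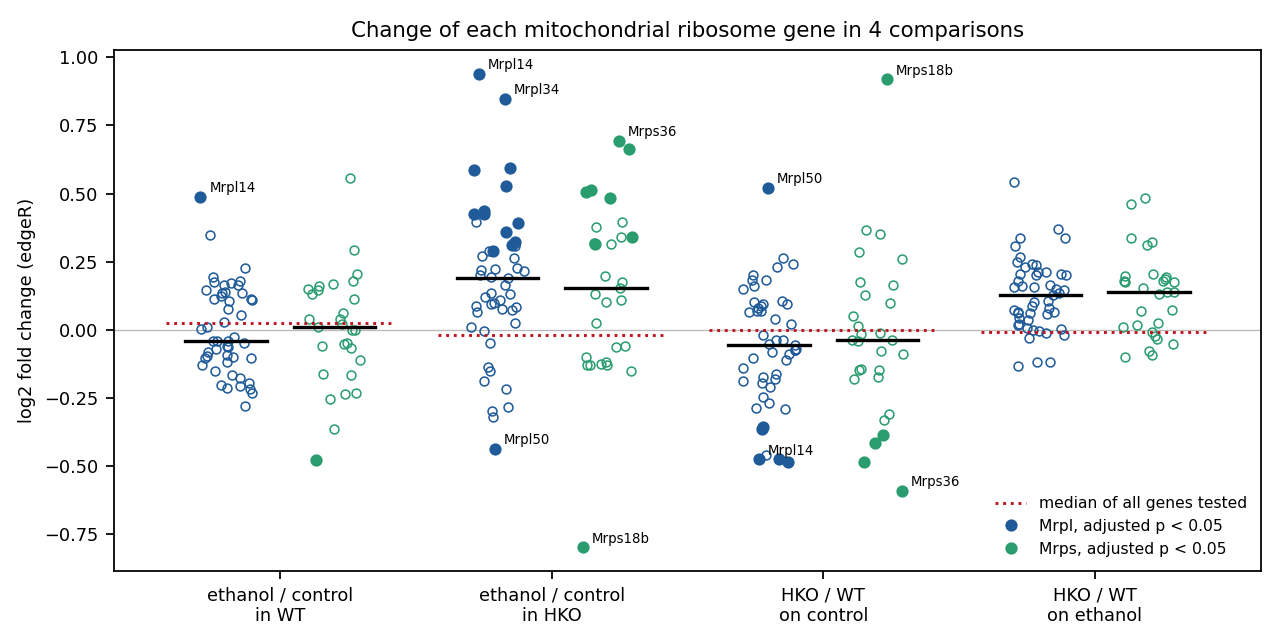
Log2 fold change of each of the 49 Mrpl (blue) and 29 Mrps (green) genes in the 4 pairs of groups, with filled points at an adjusted p under 0.05, black bars at the median of each subunit and red dotted lines at the median of all 14038 genes tested. With ethanol in Ahr HKO livers most points lie above 0 while Mrps18b and Mrpl50 lie below, and both are the opposite way in Ahr HKO against WT on control diet. On ethanol diet the median of both subunits is above 0 with TMM factors but falls to -0.06 for each with library totals, where that of all genes is -0.20.

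On control diet, few genes of the family rose with deletion of Ahr in hepatocytes, and the share that fell was somewhat below that of all genes. Of the 78 genes 2 rose, or 2.56%, where 15.4% of all genes did, and 9 fell, or 11.5%, where 14.2% of all genes did. The 9 were Mrps36, Mrps9, Mrpl41, Mrpl12, Mrpl14, Mrps35, Mrps5, Mrpl49 and Mrpl2. The groups did not overlap for 9 genes that were higher and 19 that were lower, against 47.3% of all genes. With a fold change above 1.5, 2 of the 78 were called, against 19.9% of all genes. The median log2 fold change was -0.06 for the Mrpl and -0.04 for the Mrps genes, beside -0.00096 for all genes, and with library totals the 2 subunits were at -0.06 and -0.04. Without Ahr HKO control liver 2 the medians were -0.01 for the Mrpl and 0.02 for the Mrps genes, and 38 rather than 31 of the 78 log2 fold changes were above 0.

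Mrps18b, a small subunit protein, rose the most, from 27.3, 25.9 and 29.03 CPM in WT to 48.6, 50.4 and 56.1 in Ahr HKO control livers (1.89-fold, log2 0.92, SE 0.10, adjusted p = 0.00138). Mrpl50, a large subunit protein without a bacterial counterpart, rose from 34.0, 34.3 and 31.0 to 47.4, 49.9 and 44.9 CPM (log2 0.52, SE 0.09, adjusted p = 0.00593). Neither gene showed overlap between the groups. Mrps36 had the largest fall, from 6.81, 6.12 and 7.09 to 5.16, 4.37 and 3.73 CPM (log2 -0.59, SE 0.16, adjusted p = 0.0286). Mrps9 fell by 0.49 on the log2 scale (SE 0.11, adjusted p = 0.0137) and Mrpl41 by 0.48 (SE 0.09, adjusted p = 0.00724). Mrps35 fell by 0.41 (SE 0.11, adjusted p = 0.0265). Mrpl12 and Mrpl14, which rose with ethanol in Ahr HKO livers, each had a log2 fold change of -0.47 here (SE 0.10 and 0.13, adjusted p = 0.0111 and 0.0292). Tmem63b, whose exons overlap Mrpl14, fell by 0.72 (SE 0.11, adjusted p = 0.00437). Leaving out 1 liver at a time, 4 to 9 of the 78 genes were called. Of all 14038 genes 1340 to 1925 were then called higher and 1290 to 1823 lower. The lowest counts were 7 without WT control liver 1, 6 without WT control liver 2 and 4 without WT control liver 3. The calls of Mrps18b, Mrpl50, Mrpl41 and Mrpl12 held in all 6 cases, and those of Mrps36 and Mrpl14 in 1 of 6.

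The rise of Mrps18b set it apart from its 2 paralogs, which derive from the same bacterial protein. Mrps18a, whose product sits in the large subunit, had log2 fold changes of -0.02 (SE 0.09) for genotype on control diet and 0.10 (SE 0.09) for ethanol in Ahr HKO livers. Mrps18c, a small subunit protein, had -0.08 (SE 0.12) and 0.20 (SE 0.12). Neither was called in any comparison. The exons of Mrps18b overlap Gm16279, an annotated transcript on the opposite strand, over 638 bases.

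On ethanol diet, no gene of the family differed between the genotypes by edgeR's quasi-likelihood test. The background was low as well, with 0.712% of all genes higher, 0.392% lower and 1.06% called with a fold change above 1.5. At an unadjusted p under 0.05 there were 14 of the 78, or 17.9%, against 21% of all genes. DESeq2 called 5 of the 78, all higher in Ahr HKO, where 714 of all 14038 genes were called higher and 797 lower. With all 12 libraries in a single edgeR fit 3 were called, also higher, where 329 of all genes were called higher and 246 lower. With limma on FPKM none of the 78 was called. The groups did not overlap for 27 genes that were higher and 0 that were lower in Ahr HKO livers, against 27.9% of all genes in either direction. In all, 63 of the 78 log2 fold changes were above 0, with medians of 0.13 for the Mrpl and 0.14 for the Mrps genes beside -0.01 for all genes, but with library totals these became -0.06, -0.06 and -0.20, and 23 of the 78 were above 0. The family thus lay above the median of all genes under both scalings, while its sign against 0 turned.

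The 3 smallest p-values were those of Mrpl38, Mrps27 and Mrps12. Mrpl38, a large subunit protein without a bacterial counterpart, stood at 47.6, 47.3 and 48.3 CPM in WT and 62.3, 70.2 and 76.0 in Ahr HKO ethanol livers (log2 0.54, SE 0.10, adjusted p = 0.0633). Mrps27 stood at 19.4, 19.7 and 23.2 CPM in WT and 29.9, 29.9 and 27.2 in Ahr HKO ethanol livers (log2 0.48, SE 0.11, adjusted p = 0.0787). Mrps12, which lies at the decoding centre, stood at 19.0, 17.6 and 20.1 against 28.2, 27.0 and 22.7 CPM (log2 0.46, SE 0.11, adjusted p = 0.095). The groups did not overlap in any of the 3, and none passed the threshold. The Kupffer cell markers summed to 306.2 to 797.9 CPM in WT and 192.6 to 239.4 in Ahr HKO ethanol livers, and their part in these differences was not tested.

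**Figure D4:**
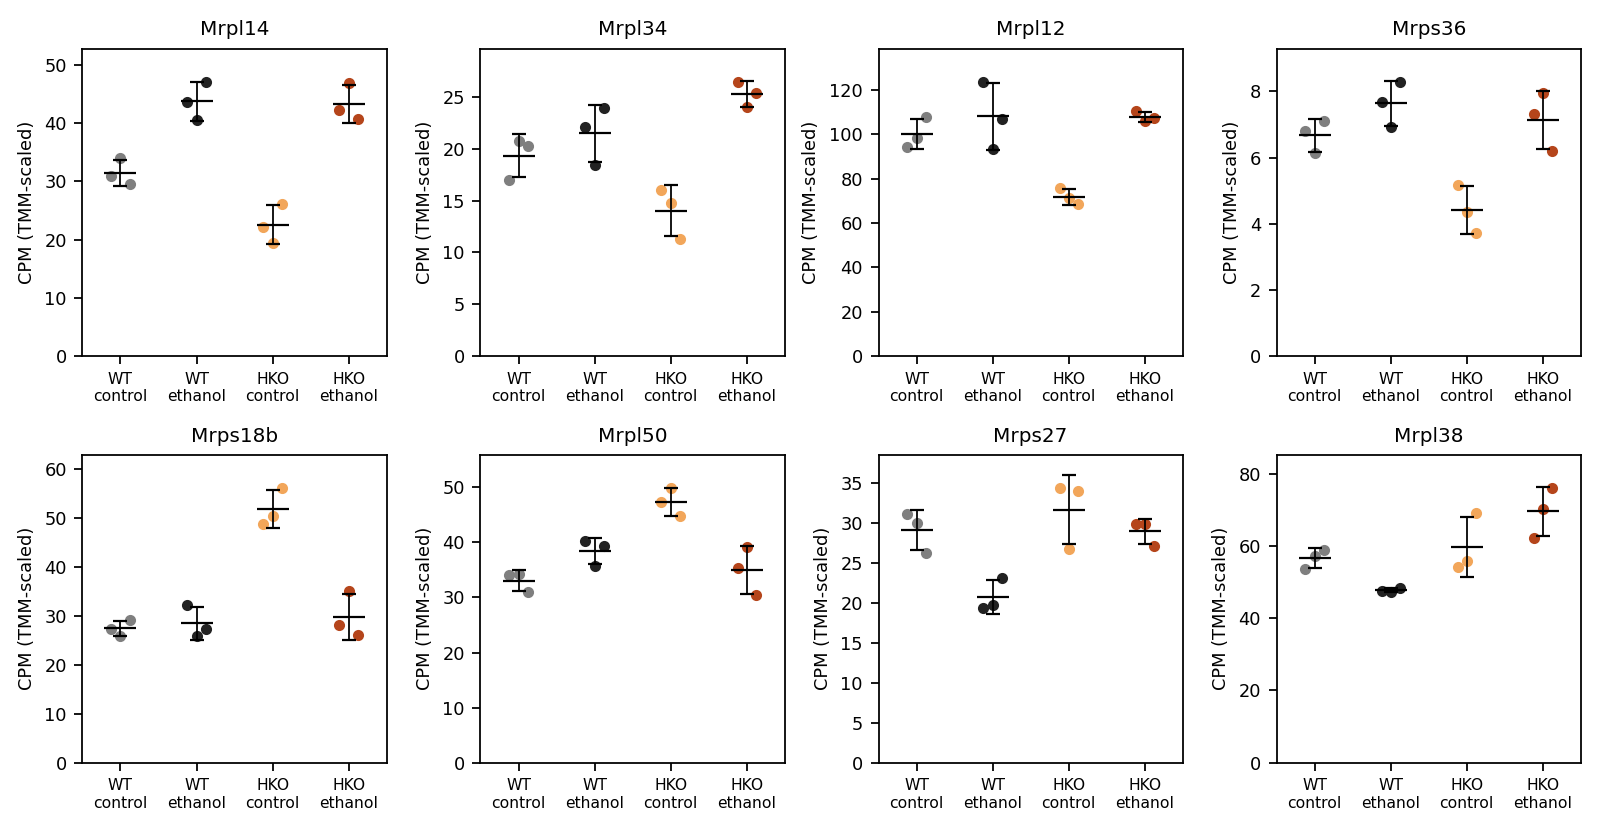
TMM-scaled CPM of 8 genes in each liver, with 1 point per liver and the mean with SD of 3 livers in black, axes from 0. Mrpl14, Mrpl34, Mrpl12 and Mrps36 were lowest and Mrps18b and Mrpl50 highest in the Ahr HKO control livers, while Mrps27 and Mrpl38 were lowest in the WT ethanol livers.

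Whether ethanol acted differently in the 2 genotypes was tested as the interaction of genotype and diet in a fit of all 12 livers. The diet effect differed for 16 of the 78 genes, or 20.5%, against 22.3% of all genes, so the family was about as often affected as other genes. In 14 of the 16 the log2 change with ethanol was more positive in Ahr HKO than in WT livers, and in Mrps18b and Mrpl50 it was more negative. For Mrps18b the change was 0.06 (SE 0.11) in WT and -0.80 (SE 0.14) in Ahr HKO livers, a difference of -0.85 (SE 0.18, adjusted p = 0.00695). For Mrpl50 it was 0.23 (SE 0.09) in WT and -0.44 (SE 0.11) in Ahr HKO livers, a difference of -0.65 (SE 0.14, adjusted p = 0.00887). Mrpl34 had the largest positive difference, 0.70 (SE 0.20, adjusted p = 0.0288). With library totals 0 of the 78 genes were called with a positive and 5 with a negative difference. For all 14038 genes these numbers were 906 and 2518. The median difference of all genes moved from -0.03 to -0.23, so the positive calls rest on the scaling. The 6 named members with a positive difference stayed positive under library totals, at 0.35 to 0.49, but were no longer called. The calls of Mrps18b and Mrpl50 stood under both scalings. The 2 negative calls were made whichever liver was left out. The positive calls numbered 7, 6 and 5 without WT control liver 1, 2 or 3 and 5 without WT ethanol liver 2. They numbered 8 without Ahr HKO control liver 2 and 7 without any 1 of the Ahr HKO ethanol livers. Of all 14038 genes 1169 to 1518 were called with a positive difference in these cases.

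The divergent neighbours of the 2 exceptional genes were read in the same livers. Ppp1r10, which encodes a nuclear targeting subunit of protein phosphatase 1, stood at 17.2, 14.3 and 19.7 CPM in WT control, 47.0, 23.8 and 41.6 in WT ethanol, 48.7, 42.4 and 77.3 in Ahr HKO control and 23.8, 27.9 and 36.6 in Ahr HKO ethanol livers. It rose with Ahr deletion on control diet (log2 1.72, SE 0.24, adjusted p = 0.00309) and fell with ethanol in Ahr HKO livers (log2 -0.93, SE 0.26, adjusted p = 0.0335), as Mrps18b did. It also rose with ethanol in WT livers (log2 1.14, SE 0.24, adjusted p = 0.0324), where Mrps18b was at 0.06 (SE 0.11). Zfp189, a zinc finger gene, rose with Ahr deletion on control diet as Mrpl50 did (log2 0.66, SE 0.15, adjusted p = 0.0164) and was at -0.06 (SE 0.16) with ethanol in Ahr HKO livers, where Mrpl50 fell. Of the 18 neighbours 17 were tested. With ethanol in Ahr HKO livers 7 of the paired family members were called, and 1 of their neighbours, Ppp1r10, in the same direction. For genotype on control diet 6 members were called, and 3 of their neighbours, Ppp1r10, Zfp189 and Pnpla7, in the same direction. Cyb5rl in both comparisons and Ptcd2 in the second were called beside members that were not. Of all genes 14.9% rose and 15.9% fell in the first comparison and 15.4% and 14.2% in the second. Fau, the neighbour of Mrpl49 and a gene of the cytosolic ribosome, and Sars2, the neighbour of Mrps12 and the mitochondrial seryl-tRNA synthetase, were not called in these 2 comparisons.

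The genes were also grouped by whether their protein has a bacterial counterpart. Among large subunit genes with a bacterial counterpart, 9 of 29 rose and 0 fell with ethanol in Ahr HKO livers, where 14.9% of all genes rose and 15.9% fell, with a median log2 fold change of 0.23. Among those without one, 4 of 20 rose and 1 fell, with a median of 0.10. In the small subunit 4 of 14 genes with a bacterial counterpart rose, with a median of 0.33, and 2 of 11 without one rose, with a median of -0.06. In WT mice the corresponding medians were 0.11 and -0.09 in the large and 0.06 and -0.11 in the small subunit. The shares that rose without a counterpart, 20.0% and 18.2%, lay near that of all genes, and the difference between the 2 kinds was not tested. Mrps18a, Mrps18b, Mrps30 and Mrps36 are in neither list. Mrps18a and Mrps18b derive from a bacterial protein, and Mrps18b was called lower with ethanol in Ahr HKO livers (log2 -0.80). The lists with a bacterial counterpart thus leave out a gene that fell.

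Subunits of the particle that do not carry an Mrp name were read as well, in a list of 6 genes that also holds the membrane insertase Oxa1l. Of the 6 measured, 3 rose with ethanol in Ahr HKO livers and 0 fell, beside 14.9% and 15.9% of all genes, with a median log2 fold change of 0.37. With Ahr deletion on control diet 2 fell, beside 14.2% of all genes. Dap3, a GTP-binding small subunit protein first known from cell death, stood at 21.6, 20.6 and 19.4 CPM in Ahr HKO control and 36.9, 31.6 and 32.6 in Ahr HKO ethanol livers (log2 0.71, SE 0.10, adjusted p = 0.00365). It was lower in Ahr HKO than in WT livers on control diet (log2 -0.62, SE 0.08, adjusted p = 0.00254). Oxa1l, the insertase to which the ribosome docks at the inner membrane, changed in the same directions (log2 0.39 and -0.51, adjusted p = 0.0369 and 0.00424). Oxa1l is not itself a subunit, and it is counted among the 3 that rose and the 2 that fell. Gadd45gip1 rose with ethanol in Ahr HKO livers (log2 0.39, SE 0.11, adjusted p = 0.0344).

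In the machinery around the ribosome, the shares of assembly genes and translation factors called lay near those of all genes or below them. Of 28 assembly and rRNA modification genes, 4 rose and 3 fell with ethanol in Ahr HKO livers, and 3 rose and 5 fell with Ahr deletion on control diet. Of all genes 14.9% rose and 15.9% fell in the first of these comparisons and 15.4% and 14.2% in the second. The GTPase Mtg1, which acts in assembly of the large subunit, was at 10.6, 9.86 and 10.6 CPM in Ahr HKO control and 15.4, 18.0 and 16.0 in Ahr HKO ethanol livers (log2 0.67, SE 0.11, adjusted p = 0.00617). The RNA helicase Ddx28, also an assembly factor, went the other way, from 44.1, 31.2 and 37.1 to 12.7, 13.999 and 16.7 CPM (log2 -1.37, SE 0.16, adjusted p = 0.0027). Of 14 translation factors 0 rose and 1 fell in that comparison. Of 20 mitochondrial aminoacyl-tRNA synthetases 4 rose and 4 fell, or 20% each, somewhat above the 14.9% and 15.9% of all genes. Vars2, the valyl-tRNA synthetase, rose (log2 0.66, SE 0.10, adjusted p = 0.00524), and Rars2, the arginyl-tRNA synthetase, fell (log2 -0.58, adjusted p = 0.00984).

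Of 15 genes of mitochondrial transcription and biogenesis, 3 rose and 4 fell with ethanol in Ahr HKO livers, where 14.9% and 15.9% of all genes did. Esrra, a nuclear receptor that drives respiratory genes, stood at 12.5, 13.1 and 10.2 CPM in Ahr HKO control and 26.5, 26.7 and 27.4 in Ahr HKO ethanol livers (log2 1.17, SE 0.11, adjusted p = 0.00149). Its coactivator Ppargc1a rose as well (log2 1.51, SE 0.15, adjusted p = 0.00182), and so did Ppargc1b (log2 1.93, SE 0.36, adjusted p = 0.0092). The related coactivator Pprc1 fell from 34.4, 38.8 and 48.0 to 10.6, 15.8 and 14.7 CPM (log2 -1.56, SE 0.19, adjusted p = 0.00284). On control diet Esrra, Ppargc1a and Ppargc1b were lower and Pprc1 higher in Ahr HKO than in WT livers (log2 -1.14, -0.61, -1.61 and 1.53, adjusted p = 0.00159, 0.0351, 0.0129 and 0.000983). Nrf1 and Yy1, named here after their values were seen because their motifs were searched, fell with ethanol in Ahr HKO livers by 0.58 (adjusted p = 0.00835) and 0.41 (adjusted p = 0.0106) on the log2 scale.

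Beside the 78 genes, 79 nuclear genes of respiratory chain subunits moved further. With ethanol in Ahr HKO livers 27 rose and 0 fell, beside 14.9% and 15.9% of all genes, with a median log2 fold change of 0.39 and all 79 above 0. On control diet 0 rose and 3 fell in Ahr HKO against WT livers, beside 15.4% and 14.2% of all genes, with a median of -0.14. The 77 cytosolic ribosomal protein genes had 3 that rose and 0 that fell with ethanol in Ahr HKO livers and a median of 0.13, close to their median of 0.12 with ethanol in WT livers. The cytosolic genes include near-identical copies among which reads may be split. These lists were not tested against each other.

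**Figure D5:**
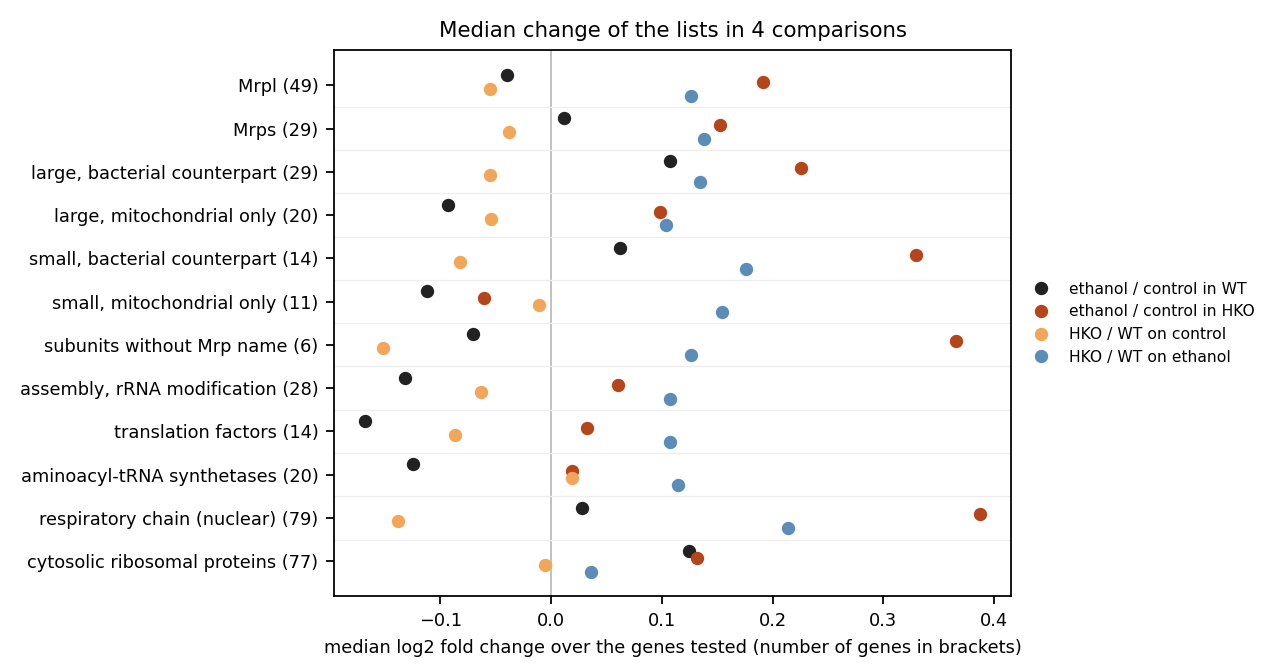
Median log2 fold change of each list in the 4 pairs of groups, with the number of genes tested in brackets. With ethanol in Ahr HKO livers the median was highest for the nuclear respiratory chain genes at 0.39. Next was the list of 6 genes of subunits without an Mrp name at 0.37, which also holds the insertase Oxa1l. With library totals in place of TMM factors the medians of the Mrpl and Mrps genes for Ahr HKO against WT on ethanol diet turn from above to below 0.

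Some counts of the family are less certain than their spread shows. Exons of 31 of the 78 genes overlap an annotated gene, on the same strand for 5 of them. Of the 16 members named by the rule 5 have an overlap, none on the same strand. Beside Mrpl14 and Mrps18b, Mrpl49 overlaps Syvn1 over 91 bases, and Syvn1 stood at 69.8 to 93.8 CPM in WT control and 264.1 to 619.4 in Ahr HKO control livers while Mrpl49 fell. Mrps6 lies on the same strand as Slc5a3, with exons that overlap, and was called in no comparison, at 5.21 to 6.94 CPM in WT control and 8.76 to 9.71 in WT ethanol livers (log2 0.56, SE 0.15, adjusted p = 0.0595). Named pseudogenes were annotated for Mrpl23, Mrpl48 and Mrps36. Mrps36 has 3 of them, and how reads shared with them were counted is not given in the sources used here.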

How the data were processed

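Whole livers of 12 mice were sequenced as poly-A RNA with a stranded kit, in paired reads of 100 bases. The authors deposited a table of read counts per gene with FPKM and TPM per gene and liver. The submitters' processing notes name FastQC 0.11.7, Trimmomatic 0.38, HISAT2 2.1.0, Bowtie2 2.3.4.1 and StringTie 1.3.4d, with no roles, and the build mm10. The deposited TPM values were not used, and the deposited FPKM values served for levels between genes and as an alternative scale.

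The deposited read counts per gene were tested in R 4.3.3 by means of edgeR 4.0.16. Features stayed in by edgeR's default filter on low counts (14038 of 24532), libraries were scaled by TMM within the groups compared, and the quasi-likelihood test was fitted per pair of groups and, for the interaction, over all 12 livers, with Benjamini-Hochberg adjustment. CPM values use TMM factors of all 12 livers. The scripts were checked on simulated counts. Alternatives were DESeq2 1.42.0, limma 3.58.1 on log-scale FPKM (pseudocount 1, also after quantile normalization, or 0.1), other scalings and filters, a replicate block, and leaving out each liver. After the data were seen, changes under library totals were also centred on the median of all genes. Named members are up to 6 higher and 6 lower per comparison by size among those called with a mean count of at least 50, or else the 3 smallest p-values, with role genes such as Mrpl10, Mrpl11 and the Mrps18 paralogs, and up to 4 genes of each other list by smallest adjusted p. The genes and lists were chosen with earlier results of these data known. Positions and promoters come from RefSeq GRCm38.p6, neighbours and overlaps from GENCODE, matched by gene ID and symbol.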

Additional observations from a re-analysis of the deposited data

Results flagged for a closer look

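The response to ethanol differed between the genotypes for 16 of the 78 genes by the interaction term of edgeR's quasi-likelihood test, with Benjamini-Hochberg adjustment over all genes. Of all genes 22.3% were called in the same way, so the family was called about as often as other genes. The log2 change with ethanol in Ahr HKO livers minus that in WT livers was -0.85 for Mrps18b (adjusted p = 0.00695) and -0.65 for Mrpl50 (adjusted p = 0.00887). Among Mrps genes the difference was 0.57 for Mrps35, 0.57 for Mrps5 and 0.56 for Mrps9. Among Mrpl genes it was 0.70 for Mrpl34, 0.57 for Mrpl49, 0.55 for Mrpl41, 0.54 for Mrpl40, 0.51 for Mrpl2, 0.50 for Mrpl22, 0.48 for Mrpl12, 0.47 for Mrpl38, 0.44 for Mrpl39, 0.43 for Mrpl28 and 0.39 for Mrpl9. The adjusted p of these 14 lay between 0.0176 and 0.047. With library totals in place of TMM factors, and with limma on log2(FPKM + 1), 0 of the 78 genes were called with a positive difference. With a negative one 5 and 7 were called. Of all genes, 14038 and 13345 tested, 906 and 798 were called with a positive and 2518 and 2672 with a negative difference.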

How the results depend on the processing

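Of the values of named members under the alternatives, 444 kept direction and side of the threshold, 83 were no longer past it, 6 newly passed it and 0 reversed. By DESeq2 or a single fit of all 12 libraries, 4 of the 78 genes were called with ethanol in WT (2 higher, 2 lower). Limma on quantile-normalized FPKM called 4 (1 higher, 3 lower), and the fit without a filter called 1. Library totals gave 4 and limma on log2(FPKM + 1) gave 9, all higher. Of all genes these 2 settings called 1198 of 14038 and 1591 of 13345 higher, and 430 and 393 lower. The direction of the calls thus turned with the scaling in the family as in all genes. An adjusted p under 0.25 with a fold change above 1.5 gave 0 in WT and 7 in Ahr HKO, and an adjusted p under 0.05 with that fold change gave 2 for genotype on control diet. With ethanol in Ahr HKO there were 13 with limma on log2(FPKM + 0.1), 11 higher and 2 lower. Of all 13345 genes in that fit 1554 were called higher and 2393 lower. For genotype on ethanol diet there were 5 with DESeq2 and 3 in a single fit. The interaction gave 5 with library totals, 7 with limma on log2(FPKM + 1) and 6 with a pseudocount of 0.1, all negative. Of all genes 2518, 2672 and 2569 were called negative in these settings. With library totals, limma on log2(FPKM + 1) and limma on log2(FPKM + 0.1), the median log2 fold change with ethanol in WT was 0.079, 0.11 and 0.12 for Mrpl and 0.13, 0.16 and 0.17 for Mrps genes. For genotype on ethanol diet these were -0.064, -0.074 and -0.083 for Mrpl and -0.057, -0.074 and -0.080 for Mrps genes. With ethanol in Ahr HKO the medians were 0.093 and 0.094 (Mrpl) and 0.075 and 0.083 (Mrps) under these limma fits, and with upper-quartile scaling they were -0.13 and -0.11 for genotype on control diet. The summed CPM with library totals was 1540 (Mrpl) and 706 (Mrps) in WT ethanol and 1461 and 670 in Ahr HKO ethanol livers, and with upper-quartile scaling 1457 (Mrpl) in WT control and 1517 and 695 in Ahr HKO ethanol livers. Counted by structure the ratio was 2.41, 2.45, 2.28 and 2.43 in WT control, WT ethanol, Ahr HKO control and Ahr HKO ethanol livers. Leaving out 1 liver gave 0 to 1 calls for ethanol in WT, 9 to 20 in Ahr HKO, 4 to 9 for genotype on control and 0 to 1 on ethanol diet, and 7 to 15 for the interaction, and an Mrps median of 0.085 to 0.23 with ethanol in Ahr HKO. Same-numbered livers did not all deviate together (correlations of -0.0884 to 0.178), so their numbers do not pair them, and a replicate block gave 0, 10, 6, 0 and 13 calls for ethanol in WT, in Ahr HKO, genotype on control and on ethanol diet and the interaction. With library totals centred on the median of all genes, an alternative chosen after seeing the data, 29 of 29 named values kept their direction. Centring takes out most of the shift between library totals and TMM factors, so this outcome was largely built in. These 29 are counted in the 444 above by direction alone. Apart from the settings' own construction, the cause of these shifts was not tested.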

Other observations

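Lars2, the mitochondrial leucyl-tRNA synthetase, was singled out after its values were seen. It stood at 18.3 to 22.3 CPM in WT control livers. In WT ethanol livers it was at 20.4, 19.4 and 620.8 CPM, in Ahr HKO control livers at 1251, 11.7 and 1463 CPM, and in Ahr HKO ethanol livers at 24.8, 1307 and 2021 CPM. Livers of the same group thus differed far more in the reads counted for Lars2 than in any of the 78 ribosome genes, whose highest coefficient of variation within a group was 19.7%. How reads that match several places were counted is not given in the sources used here, and whether these reads come from the Lars2 transcript alone was not tested.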
